A study of Mus musculus with 9 samples.

Results

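The genes described here encode proteins of skeletal muscle fibres, most of them of the sarcomere, and include fast forms of myosin and troponin. They were read in ribosome-bound RNA captured from endothelium of mouse white fat. The list held 10 genes, Myh1, Myh4, Myh8, Ryr1, Tnnt3, Tnni2, Neb, Acta1, Ckm and Ttn. Of these, 9 were measured among the 11802 genes of the deposited table, and Ckm was not analysed here. The list was drawn up from the KO and WT values of these same libraries. Those values are therefore a description and carry no test.

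All 9 libraries came from RiboTag mice, in which Cre recombinase switches on an HA-tagged form of the ribosomal protein Rpl22, so that an HA antibody can pull down the ribosomes of the chosen cells. The 5 KO libraries came from Pdgfb-iCreERT2:Mfn2ideltaEC:Rpl22HA mice, recorded as lacking Mfn2 in endothelial cells, and the 4 WT libraries from Pdgfb-iCreERT2:Rpl22HA mice, which kept it. Both groups thus shared the inducible Cre under the Pdgfb promoter, which is active in endothelium, and the tagged Rpl22. Both had a light and dark cycle with free food and water, and no source used here gives age or sex. The labels number biological replicates without naming animals or pools, so any p-value rests on the spread among these 9 libraries. The homogenate set aside before the capture was not analysed here.

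In a muscle fibre, myosin heavy chains form the thick filament and pull on thin filaments of actin. Troponin sits on the thin filament and makes this pull depend on calcium, which leaves the sarcoplasmic reticulum through the ryanodine receptor. Titin and nebulin are giant proteins of the sarcomere that help set the place and length of its filaments. Fast and slow fibres use different myosin and troponin genes. White fat depots and their endothelium are not built of such fibres.

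Myh1, Myh4 and Myh8 lie side by side in 1 cluster on chromosome 11, and 109 kb separate the start of Myh1 from the end of Myh8. Tnni2 and Tnnt3 lie 54.4 kb apart on chromosome 7, which also holds Ryr1. The other members are on chromosome 2 (Neb, Ttn) and chromosome 8 (Acta1). RefSeq (GRCm38.p6) had a promoter entry for 6 of the 9, namely Myh1, Myh4, Myh8, Ryr1, Acta1 and Ttn. The upstream sequences of the clustered myosins are shown because they share words of sequence. They are on the plus strand, at chr11:67199852-67200051, chr11:67237562-67237811 and chr11:67276874-67277123. Capitals mark the words of at least 10 bases common to all of them.
Myh1: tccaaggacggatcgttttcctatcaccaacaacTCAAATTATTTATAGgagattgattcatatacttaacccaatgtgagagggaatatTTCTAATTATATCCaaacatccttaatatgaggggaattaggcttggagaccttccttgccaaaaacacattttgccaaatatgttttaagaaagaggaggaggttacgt
Myh4: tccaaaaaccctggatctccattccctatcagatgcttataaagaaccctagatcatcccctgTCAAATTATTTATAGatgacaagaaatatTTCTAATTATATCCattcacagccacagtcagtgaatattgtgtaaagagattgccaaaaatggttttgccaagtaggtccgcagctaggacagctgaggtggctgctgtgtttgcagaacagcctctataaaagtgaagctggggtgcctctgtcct
Myh8: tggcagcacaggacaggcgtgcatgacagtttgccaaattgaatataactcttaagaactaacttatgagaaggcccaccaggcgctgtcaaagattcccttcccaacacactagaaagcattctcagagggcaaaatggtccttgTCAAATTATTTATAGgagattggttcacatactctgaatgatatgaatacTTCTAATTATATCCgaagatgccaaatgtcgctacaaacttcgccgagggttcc

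The 15-base word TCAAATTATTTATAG began 216, 187 and 104 bases before the RefSeq start of Myh1, Myh4 and Myh8, and was found in 3 of 32851 promoters (0.00913%). The 14-base word TTCTAATTATATCC began 160, 158 and 54 bases before the same starts and was found in 4 promoters (0.0122%), the fourth being Myh2 of the same cluster. Windows of 300 bases were searched on both strands for motifs of muscle promoters. The MEF2 motif, bound by the MEF2 factors, was found in 4 of the 6 members searched and in 3.19% of all promoters. In Myh1, Myh4 and Myh8 it lay inside the 15-base word, and Ttn was the other. The CArG box, bound by serum response factor, was found in 2 of 6 (Acta1 and Myh4; 1.63% of all promoters). The E-box CANNTG, bound by myogenic and many other factors, was found in 4 of 6 (72.3% of all promoters). TATAAA was found in 4 of 6 (13.6% of all promoters). In Myh1, Myh4 and Myh8 the 15-base word itself holds this match on the other strand, overlapping the MEF2 match, so the 2 counts are not separate. These matches are descriptions of letters and do not show binding.

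Values are in CPM, a gene's reads scaled to a common library total. Whole reads could be recovered from them, and the libraries held between 3829356 reads (KO replicate 5) and 1034753 reads (WT replicate 4). Mitochondrial ribosomal RNA took 12.6% to 24.8% of reads in the KO libraries and 64.2%, 47.0%, 47.1% and 13.6% in WT replicates 1 to 4. The groups also differed over the table as a whole: the median log2 fold change of all genes, KO over WT on log2(CPM + 1), was 1.10. Relative values are the same log2 values after subtraction of each library's median. Mfn2, the targeted gene, had 130, 35.4, 57.0, 65.6 and 46.0 CPM in KO replicates 1 to 5, against 20.2, 55.8, 30.5 and 38.0 CPM in WT replicates 1 to 4. The groups overlap, so its level does not check the labels, and which part of the gene was deleted is not stated. The labelled cell type was represented, with all 22 endothelial markers measured. Their summed level was 4028 to 9215 CPM in the KO libraries and 1329 to 4527 CPM in the WT libraries. The 20 adipocyte markers summed to 12563 to 26537 CPM in KO and 6212 to 11069 CPM in WT. Fabp4, a fatty acid binding protein that capillary endothelium also makes, gave 7167 to 18869 CPM of this in KO and 2589 to 5973 CPM in WT.

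Of the myosin heavy chains on the list, Myh4 (GRCm38 chromosome 11, 67238029 to 67260446, plus strand), the chain of the fastest fibres, had the highest level in each library. It was at 256, 140, 210, 76.7 and 3721 CPM in KO replicates 1 to 5, against 17.6, 27.3, 10.5 and 66.5 CPM in WT replicates 1 to 4. Each KO library lay above each WT library, KO replicate 4 by the smallest step, and KO replicate 5 stood far above the rest. The group means were 881 ± 1589 CPM in KO (SD, n = 5) and 30.5 ± 25.0 CPM in WT (SD, n = 4), a ratio of 28.9. Without KO replicate 5 the KO mean was 170 ± 78.8 CPM (SD, n = 4) and the ratio 5.60.

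Myh1 (chromosome 11, 67200052 to 67224575, plus strand), the chain of another class of fast fibre, was at 52.5, 24.4, 24.9, 29.9 and 554 CPM in the KO libraries, against 2.70, 14.2, 5.78 and 10.4 CPM in the WT libraries. Myh8 (67277124 to 67308634), the perinatal chain of developing muscle, was at 59.5, 25.3, 26.7, 32.8 and 623 CPM in the KO libraries, against 1.80, 5.14, 3.68 and 7.60 CPM in the WT libraries. For both genes the groups did not overlap, and KO replicate 5 was 10.5 times the next highest KO library. The ratio of group means was 16.5 for Myh1 and 33.7 for Myh8, and without KO replicate 5 it was 3.97 and 7.92. Neighbouring myosin genes share exon sequence. Of the 75-base windows of the annotated transcripts, 16.6% in Myh1, 9.68% in Myh4 and 12.9% in Myh8 occurred in another gene as well, most often in Myh2 for Myh1 and Myh8 and in Myh1 for Myh4. No source used here says how the authors' counting placed such reads, so the split between these chains is less certain than their sum.

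Myh2, Myh3 and Myh13, the other measured genes of the cluster, encode a further fast chain, the embryonic chain and an extraocular chain. Myh2 had 434 CPM in KO replicate 5, 20.6 to 42.5 CPM in the other KO libraries and 6.73 to 21.5 CPM in the WT libraries. Myh4 held 60.1%, 63.2%, 71.6%, 38.6% and 68.7% of the reads of the 6 clustered genes in KO replicates 1 to 5, against 56.5%, 46.0%, 25.0% and 64.2% in WT replicates 1 to 4. The share differed between libraries within each group and overlapped between the groups, with its lowest value in KO replicate 4 among KO and in WT replicate 3 among WT. The 95% Wilson interval was 68.1% to 69.3% in KO replicate 5, with 21051 reads, and 44.8% to 67.6% in WT replicate 1, with 69 reads. Intervals of this kind cover counting error only, because no molecular identifiers mark which reads copy the same molecule.

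Of the thin-filament genes, Acta1 (chromosome 8, 123891769 to 123894751, minus strand), the skeletal muscle alpha-actin, was at 32.8, 33.0, 38.2, 24.0 and 292 CPM in the KO libraries. It was at 9.45, 5.14, 14.7 and 25.7 CPM in the WT libraries. KO replicate 4 lay below WT replicate 4, and the other KO libraries lay above all WT libraries. The means were 84.0 ± 116 CPM in KO (SD, n = 5) and 13.7 ± 8.86 CPM in WT (SD, n = 4), a ratio of 6.12, which was 2.33 without KO replicate 5. These were the lowest ratios among the 9 genes.

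Tnnt3 (chromosome 7, 142498836 to 142516009, plus strand), the fast troponin T that ties troponin to tropomyosin, was at 73.5, 35.8, 47.2, 14.6 and 946 CPM in KO, against 5.40, 7.52, 3.15 and 13.3 CPM in WT. Tnni2 (142441808 to 142444410, plus strand), the fast inhibitory troponin, was at 68.9, 43.0, 39.0, 6.44 and 774 CPM in KO, against 5.40, 9.89, 5.25 and 0 CPM in WT. KO replicate 5 was the highest library for both troponins and KO replicate 4 the lowest KO library. In Tnni2 that library, with 11 reads, lay below WT replicate 2, with 25 reads, so the groups overlapped. In Tnnt3 they were separate by a small step. The ratio of means was 30.4 for Tnnt3 and 36.3 for Tnni2, and without KO replicate 5 it was 5.83 and 7.66. The single 0 among the members was Tnni2 in WT replicate 4, where 1 read is worth 0.950 CPM.

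The giant structural genes were less extreme in KO replicate 5. Ttn (chromosome 2, 76703980 to 76982547, minus strand), which encodes titin, was at 232, 113, 217, 260 and 1237 CPM in KO, against 55.8, 51.4, 33.6 and 124 CPM in WT. KO replicate 2 lay just below WT replicate 4, so the groups overlapped by that pair alone. Neb (chromosome 2, 52136647 to 52378474, minus strand), which encodes nebulin, was at 61.0, 16.7, 23.4, 79.7 and 226 CPM in KO, against 5.40, 9.89, 2.10 and 8.55 CPM in WT. The groups did not overlap. The ratio of means was 6.23 for Ttn and 12.5 for Neb, and without KO replicate 5 it was 3.11 and 6.97. KO replicate 4 was the second highest library for both, above KO replicates 1 to 3, the reverse of its place for the troponins.

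Ryr1 (chromosome 7, 29003344 to 29125179, minus strand) encodes the calcium release channel of the sarcoplasmic reticulum and is no part of the sarcomere itself. It was at 60.7, 38.7, 37.1, 70.3 and 371 CPM in KO, against 1.80, 14.6, 6.83 and 2.85 CPM in WT. The groups did not overlap, and the ratio of means was 17.7, or 7.92 without KO replicate 5. Antisense genes overlap exons of Ryr1 (864 bases), Myh1 (515 bases), Ttn (453 bases) and Neb (45 bases). None of these antisense genes was measured, and since the kit does not mark strand their reads could not be told from those of the listed genes.

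**Figure D1:**
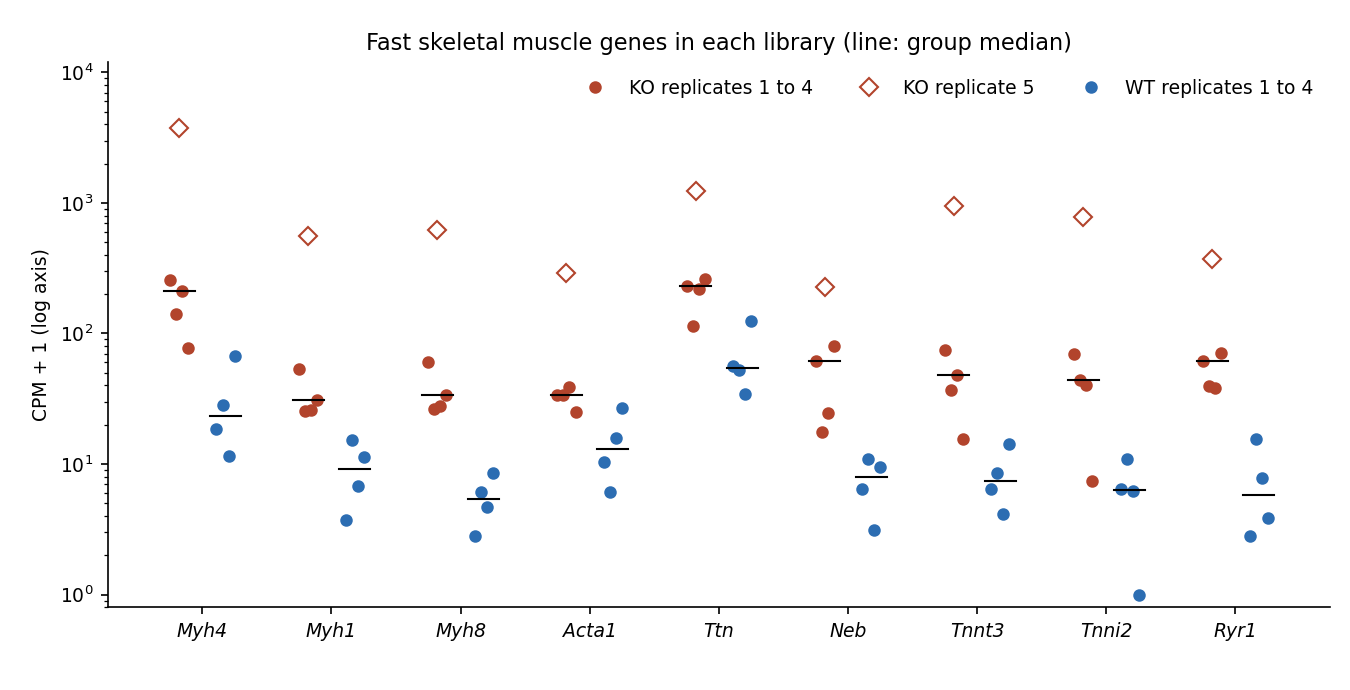
CPM + 1 on a log axis for the 9 measured genes, with KO replicates 1 to 4 as filled red points, KO replicate 5 as an open diamond and the 4 WT replicates as blue points; black lines are group medians. KO replicate 5 is the highest library for each of the 9 genes, from 226 CPM for Neb to 3721 CPM for Myh4, and KO and WT points overlap for Acta1, Ttn and Tnni2.

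KO libraries lay wholly above WT libraries for 6 of the 9 genes, and this held for 18.7% of all genes in the table. The list was chosen on this contrast, so nothing is read from that count. In relative values 3 of the 9 were without overlap, Myh8, Neb and Ryr1, beside 2.07% of all genes. Without KO replicate 5 the same 3 genes were without overlap in relative values (2.52% of all genes). KO replicate 5 was the highest of the 9 libraries for 9 of 9 genes, beside 32.2% of all genes. The members' mean in WT alone was at or above 1.77 CPM, the lowest mean of any gene in the table, for 9 of 9. That minimum was read from the values. Whether the members would have entered the table on their WT values alone was not tested.

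On log2(CPM + 1) the fold changes, KO over WT, ran from 1.98 (SE 0.552) for Acta1 to 3.69 (SE 0.723) for Tnni2, and Ryr1 was next at 3.65 (SE 0.562). Relative to the library median they ran from 1.01 (SE 0.544) for Acta1 to 2.71 (SE 0.926) for Tnni2. With KO replicate 5 left out the relative values were lower for each gene, at 0.42 (SE 0.437) for Acta1 and 2.15 (SE 0.510) for Ryr1, the lowest and the highest of the 9. Myh4 had 2.56 with and 1.70 without that library, Tnnt3 2.28 and 1.40, Ttn 1.27 and 0.79, and Neb 2.05 and 1.58. The order of the genes by fold thus depended on KO replicate 5, which moved the troponins and Myh4 more than Neb and Ryr1. Per kilobase of merged exon, the highest KO means were 146 CPM for Myh4, 141 for Tnnt3 and 124 for Tnni2, against 5.06, 4.64 and 3.43 CPM per kilobase in WT. Acta1 was at 54.7 CPM per kilobase in KO and 8.95 CPM per kilobase in WT, the highest of the WT levels on this scale.

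Together the 9 genes summed to 897, 469, 663, 594 and 8743 CPM in KO replicates 1 to 5, against 105, 145, 85.6 and 258 CPM in WT replicates 1 to 4. Each KO library lay above each WT library, and KO replicate 5 alone held 76.9% of the members' CPM over the KO libraries. In that library they took 0.874% of reads (95% Wilson interval 0.865% to 0.884%), against 0.0469% to 0.0897% in the other KO libraries and 0.00856% to 0.0258% in the WT libraries. The means were 2273 ± 3620 CPM in KO (SD, n = 5) and 149 ± 77.3 CPM in WT (SD, n = 4), a ratio of 15.3. Without KO replicate 5 the KO mean was 656 ± 180 CPM (SD, n = 4) and the ratio 4.41. With the mitochondrial ribosomal RNAs left out of the library totals the ratio was 10.3, and 3.14 without KO replicate 5. With TMM scaling it was 6.81 and 2.32. In such bulk libraries, the number of contributing cells and the RNA per cell cannot be told apart. Which cells these reads came from was not tested.

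KO replicate 5 held 4.99 (Neb) to 22.1 (Tnnt3) times the mean of the other KO libraries, where the median over all genes was 1.16. Of all genes, 82 (0.695%) were at least 5 times that mean, among them 8 of the 9 members, Neb lying just below, and 17 of the 45 other skeletal muscle genes measured. The same measure counted 79, 17, 4 and 58 genes for KO replicates 1 to 4, each set against the other 4 KO libraries. These held 0 members and 0 of the other muscle genes.

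The make-up of the muscle reads differed between libraries as well as their amount. Ttn, Neb and Ryr1, the members with the longest transcripts, gave 39.4%, 35.8%, 41.9%, 69.0% and 21.0% of the members' reads in KO replicates 1 to 5, against 59.8%, 52.3%, 49.7% and 52.2% in WT replicates 1 to 4. KO replicate 5 had the lowest share and KO replicate 4 the highest, and all WT libraries lay between these. The intervals did not meet, at 20.5% to 21.4% in KO replicate 5 and 66.1% to 71.7% in KO replicate 4, with 33990 and 1015 reads. The WT shares rest on 163 to 367 reads each, and the interval of WT replicate 3 ran from 42.1% to 57.3%.

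**Figure D2:**
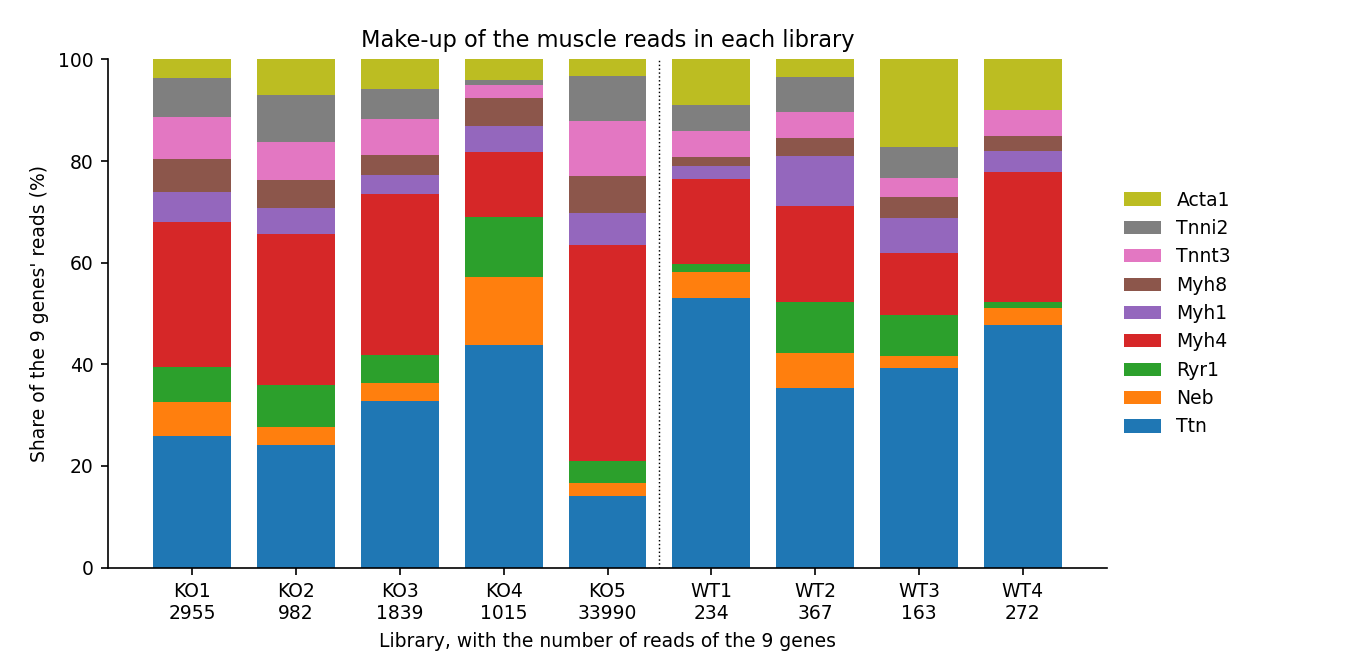
Stacked bars of the percent of the 9 genes' reads that came from each gene, for the 5 KO libraries and then the 4 WT libraries, with the number of reads under each bar. Ttn, Neb and Ryr1 at the foot of the bars give 21.0% in KO replicate 5 and 69.0% in KO replicate 4, and between 49.7% and 59.8% in the WT libraries.

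KO replicate 4 was compared with KO replicates 1 to 3 across transcript length, a split chosen after the values were seen. On log2(CPM + 1), KO replicate 4 minus the mean of KO replicates 1 to 3, the difference was -2.79 for Tnni2, -1.77 for Tnnt3, 0.47 for Ttn, 0.62 for Ryr1 and 1.22 for Neb. Over the 54 skeletal muscle genes measured, members included, KO replicate 4 was lower for 21 of the 25 genes with under 5000 merged exon bases (median difference -1.69). It was lower for 16 of the 29 longer ones (median -0.05). Over all genes the medians were 0.17 for shorter and 0.05 for longer genes. Across the 54 genes the difference had r = 0.46 with log10 length, and across all genes with a symbol r = -0.07. Genes are not independent replicates. What sets KO replicate 4 apart was not tested.

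**Figure D3:**
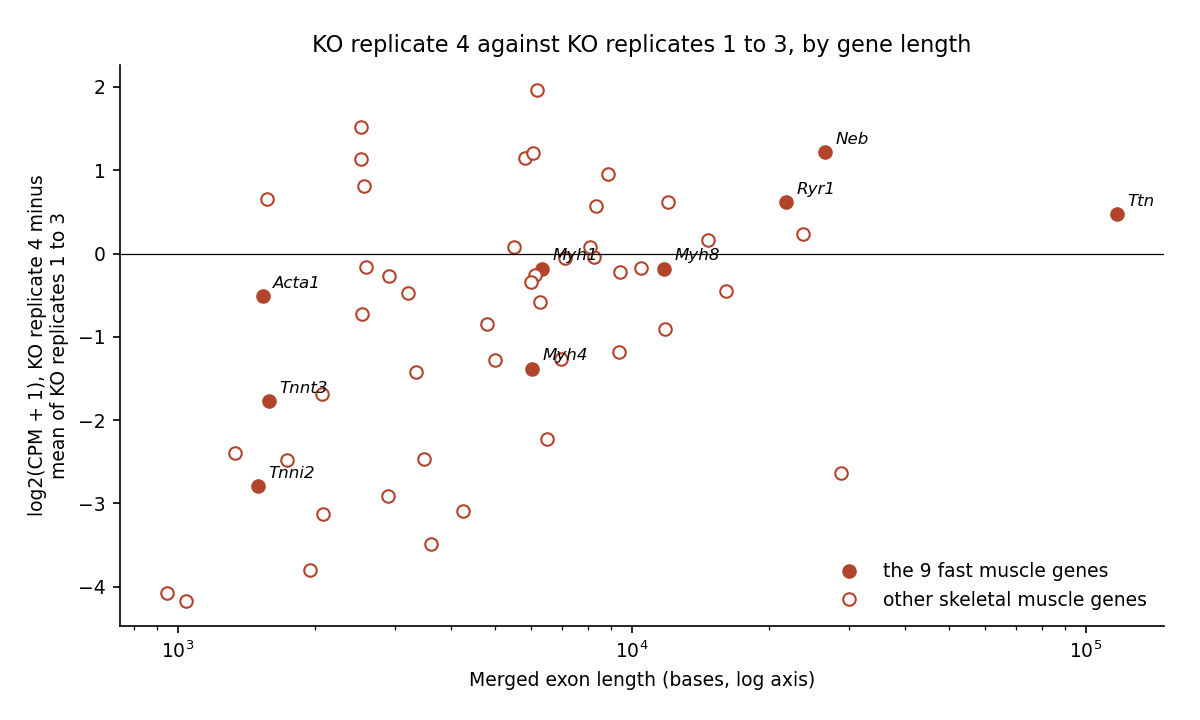
Each point is 1 of 54 skeletal muscle genes, with merged exon length in bases on a log axis. The vertical axis is log2(CPM + 1) in KO replicate 4 minus the mean of KO replicates 1 to 3. Filled points are the 9 members, labelled fast muscle genes. Neb, Ryr1 and Ttn lie above 0 at the long end, and Tnni2 and Tnnt3 lie at -2.79 and -1.77 at the short end.

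The 9 genes varied together over the libraries. In relative log2 values, the 36 pairs had a median Pearson r of 0.85 over the 9 libraries, with the lowest at 0.57 (Neb and Acta1) and the highest at 0.99 (Myh4 and Tnnt3). Without KO replicate 5 the median over the 8 remaining libraries was 0.58, and 33 of 36 pairs stayed above 0. The pairs below 0 were those of Acta1 with Myh1 (-0.11), with Neb (-0.11) and with Ryr1 (-0.09). The points of each pair share their library, its depth and its group, so these values are descriptions.

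The correlations were lower within groups and without KO replicate 5. With the group means removed, the median r was 0.76 over 9 libraries and 0.20 over the 8 without KO replicate 5, where 24 of 36 pairs were above 0 and 4 above 0.5. Myh4 and Tnnt3 still had r = 0.93 in that last setting, and Ryr1 and Acta1 had r = -0.78. With the group means kept, Myh1 and Myh8 of the myosin cluster had r = 0.97 with KO replicate 5 and 0.89 without it. Myh4 had 0.95 and 0.81 with Myh8, and 0.92 and 0.69 with Myh1. Myh1 shares 16.6%, Myh4 9.68% and Myh8 12.9% of their 75-base windows with other genes, and the part of shared reads in these values was not tested. Outside the cluster, Ttn and Neb, the giant structural genes on chromosome 2, had 0.90 and 0.83. Tnni2 and Tnnt3, neighbours on chromosome 7, had 0.84 and 0.64. Acta1 was the gene least like the others without KO replicate 5, with a median r of 0.20 against the other members, compared with 0.78 for Myh8. Acta1 shares 0.437% of its 75-base windows with other genes.

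**Figure D4:**
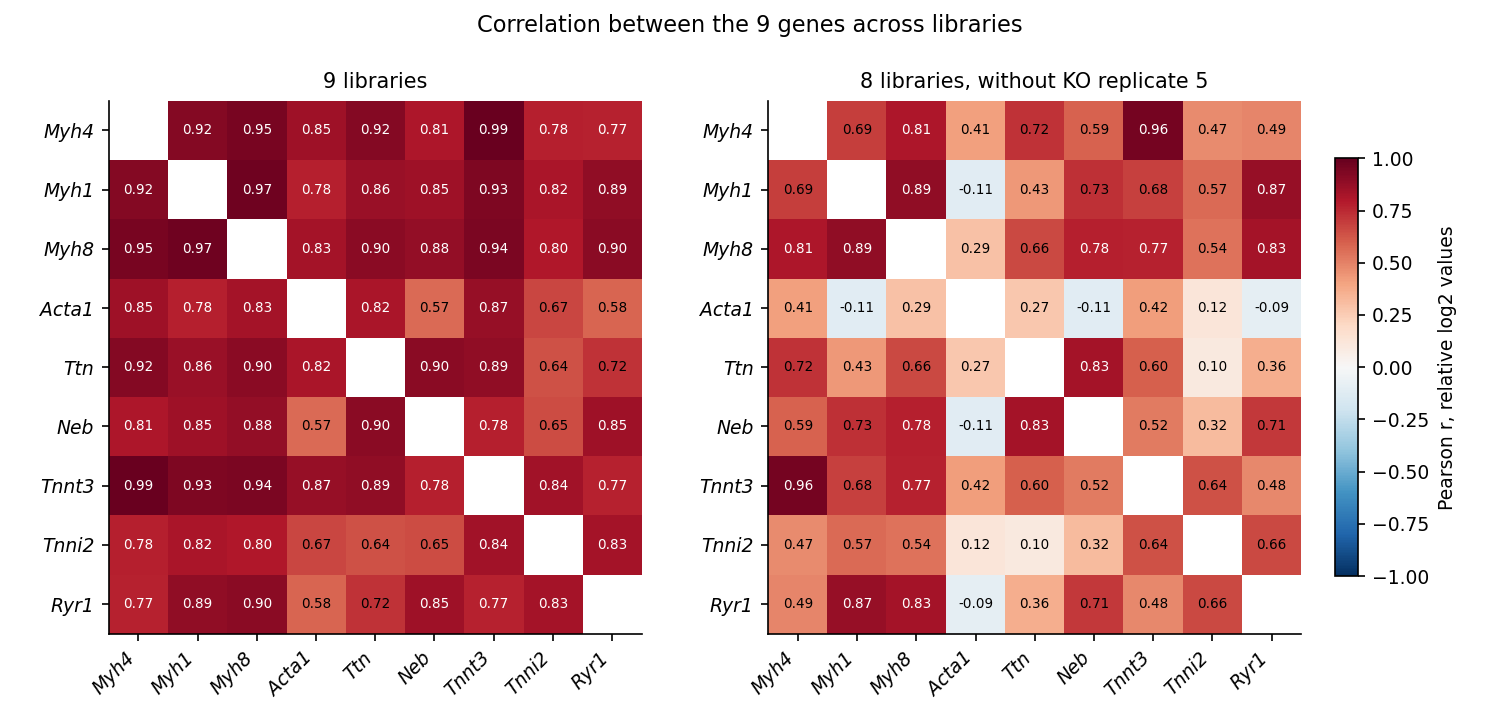
Pearson r of relative log2 values for each pair of the 9 genes, over the 9 libraries on the left and over 8 libraries without KO replicate 5 on the right; red is positive, blue is negative. All pairs lie between 0.57 and 0.99 on the left, and on the right the row of Acta1 holds the 3 values below 0 while Myh4 and Tnnt3 remain at 0.96.

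Outside the list, the genes whose pattern was most like the members' mean, over the 9 libraries and 10559 genes ranked by Pearson r of relative log2 values, were Egfl7 (0.98), Pygm (0.97), Ak1 (0.96), Dnaja2 (0.95), Apol10b (0.94), Tpm1 (0.94), Lsm14a (0.93), Mybpc2 (0.93), Nrp2 (0.92) and Ralb (0.92). Pygm, the muscle glycogen phosphorylase, Ak1, adenylate kinase, and Mybpc2, fast myosin binding protein C, are on the muscle lists, 3 of 10. Tpm1 encodes a tropomyosin of muscle and other cells, and Egfl7 is an endothelial gene. Of these 10, 1 (Egfl7) was also among the top 10 without KO replicate 5, a ranking led by Xdh (0.96), Apobec1 (0.95) and Nampt (0.94), and 1 (Pygm) among the top 10 within the KO libraries.

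Other measured genes of skeletal muscle were tested in the deposited CPM. Of 45 measured genes from 5 lists (further sarcomere genes, excitation and calcium, energy metabolism, membrane, and myogenic factors), 26 were called higher and 0 lower by limma at a Benjamini-Hochberg adjusted p under 0.05. Of all genes, 32.0% were called higher and 0.203% lower. The median log2 fold change of the 45 was 1.71, beside 1.10 for all genes. The calls depended on single libraries, for all genes as for these. The share of all genes called higher was 29.7%, 32.4%, 14.3%, 17.7% and 15.5% when KO replicates 1 to 5 were left out in turn, and 9.27%, 24.3%, 15.2% and 50.1% when WT replicates 1 to 4 were. Of the 45, 12 were called without KO replicate 5, 14 without WT replicate 1 and 16 without WT replicate 3. Relative to the library median 0 of the 45 were called by limma, with a median of 0.74, 36 above 0 and 10 higher at an unadjusted p under 0.05. Of all 11802 genes, 6839 were above 0 and 707 were higher at that unadjusted p, with a median of 0.12. On recovered reads 0 were called by edgeR (0.00847% of all genes called higher) and 0 by DESeq2 (0.357% of the 8124 genes with an adjusted p), which gave no adjusted p for 23 of them. In the relative limma fit 4 genes of the whole table were called higher (0.0339%) and 9 lower (0.0763%). KO replicate 5 was the highest library for 31 of the 45. For 18 of the 45, beside 823 of all 11802 genes, the WT mean was under 1.77 CPM, the lowest mean in the table. Their KO mean therefore had to be higher, and the medians of the 45 include them. Of the other 27, 12 were called higher, beside 3347 of 10979 such genes in the whole table.

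Of the further sarcomere genes, 17 of 35 were measured and 12 were called higher (32.0% of all genes), or 6 without KO replicate 5 (15.5%). The median log2 fold change was 2.26, or 1.28 relative. For 8 of the 17 the WT mean was under 1.77 CPM, and of the 9 others 4 were called. Mybpc2 was at 32.5, 14.8, 22.7, 1.17 and 441 CPM in KO, against 0.900, 3.16, 0 and 0 CPM in WT. Actn3, the alpha-actinin of fast fibres, was at 26.1, 6.69, 13.0, 1.17 and 198 CPM in KO, against 0, 4.75, 0.530 and 0 CPM in WT. Both genes had their lowest KO value in KO replicate 4, inside the WT range. Their WT means, 1.02 and 1.32 CPM, were under 1.77 CPM, the lowest mean in the table, so their direction was fixed and no test is given. Myom1, the M-band protein myomesin, was more even, at 11.5 to 39.1 CPM in KO and 0 to 8.40 CPM in WT (log2 fold change 2.60, SE 0.638, limma adjusted p = 0.00714). Relative to the library median it did not pass (limma adjusted p = 0.286). Mypn and Klhl41 were listed at 0 in all 4 WT libraries.

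For excitation and calcium handling, 6 of 10 measured genes were called higher (32.0% of all genes), with a median of 1.86 (0.88 relative). There were 3 calls without KO replicate 5, and 1 or 2 when WT replicate 1 or WT replicate 3 was left out. For 6 of the 10, among them Casq1, Pvalb and Jph2, the WT mean was under 1.77 CPM, and of the 4 others 2 were called. Casq1, the calcium store of fast fibres, was at 27.0, 20.1, 16.2, 0.590 and 170 CPM in KO, against 0, 2.77, 3.68 and 0 CPM in WT. Pvalb, the calcium buffer parvalbumin, was at 11.5, 17.7, 21.6, 0 and 325 CPM in KO, against 0, 4.35, 0 and 0.950 CPM in WT. KO replicate 4 again had nearly none of either, while KO replicate 5 had the most. Atp2a1, the calcium pump of fast fibres, averaged 125 ± 214 CPM in KO (SD, n = 5) and 9.67 ± 7.03 CPM in WT (SD, n = 4). It passed, with limma adjusted p = 0.0132 and 2.30 on the log2 scale (SE 0.657). The call was lost when KO replicate 5, WT replicate 1 or WT replicate 3 was left out, with fold changes from 1.43 to 2.98 over all single omissions. Jph2, a protein of the junction that holds Ryr1, was at 5.46, 3.82, 13.3, 0 and 78.2 CPM in KO, against 0.450, 1.58, 0 and 0 CPM in WT.

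For muscle energy metabolism, 6 of 10 measured genes were called higher (32.0% of all genes), with a median of 1.80 (0.83 relative) and 2 calls without KO replicate 5. For 4 of the 10, Pygm among them, the WT mean was under 1.77 CPM, and of the 6 others 4 were called. Pygm was at 16.1, 7.17, 7.21, 7.03 and 205 CPM in KO, against 1.35, 3.16, 1.05 and 0.950 CPM in WT. All KO libraries were above all WT libraries, and KO replicate 5 stood alone. Aldoa, a glycolytic enzyme also made outside muscle, was at 209 to 577 CPM in KO and 59.4 to 156 CPM in WT (log2 fold change 1.52, SE 0.405, limma adjusted p = 0.0100). Ak1 and Phka1, the muscle subunit of phosphorylase kinase, had log2 fold changes of 2.01 and 2.05 (limma adjusted p = 0.0129 and 0.0142). Without KO replicate 5 these were 1.45 and 1.74, and neither passed.

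Genes of the muscle membrane, myogenic factors and genes of slow or cardiac muscle had list medians below that of all genes. For the membrane list this turned without KO replicate 5, with a median of 1.09 beside 1.03 for all genes. Of 6 measured membrane genes, 1 was called higher (32.0% of all genes), Dysf, whose product dysferlin repairs the muscle membrane. It was at 381, 233, 585, 593 and 501 CPM in KO, against 92.7, 152, 102 and 232 CPM in WT, with KO replicate 5 inside the KO range (log2 fold change 1.68, SE 0.406, limma adjusted p = 0.00675). Of 20 listed myogenic and synapse genes, 3 were measured and 1, Mef2a, was called higher (1.25, SE 0.429, limma adjusted p = 0.0277). That call was lost when KO replicate 3, 4 or 5 or WT replicate 1 or 2 was left out, with fold changes from 1.00 to 1.47 over all single omissions. Both lists had a median of 0.95, or -0.03 relative. Of 20 slow and cardiac genes, 3 were measured, Myh7, Myh6 and Tnni3, and 0 were called by limma in either direction. Tnni3, the cardiac inhibitory troponin, was at 20.3, 9.08, 13.3, 3.51 and 1.03 CPM in KO, against 4.50, 6.73, 9.45 and 7.60 CPM in WT. The 3 genes summed to 25.8, 13.9, 18.0, 18.1 and 7.72 CPM in KO, against 9.90, 19.0, 9.45 and 22.8 CPM in WT. KO replicate 5, the library with the highest sum of the members, had the lowest sum of these 3 genes. Of them only Tnni3 was lowest in that library. Myh7 (3.09 CPM) and Myh6 (3.60 CPM) in KO replicate 5 lay within the range of the other KO libraries.

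**Figure D5:**
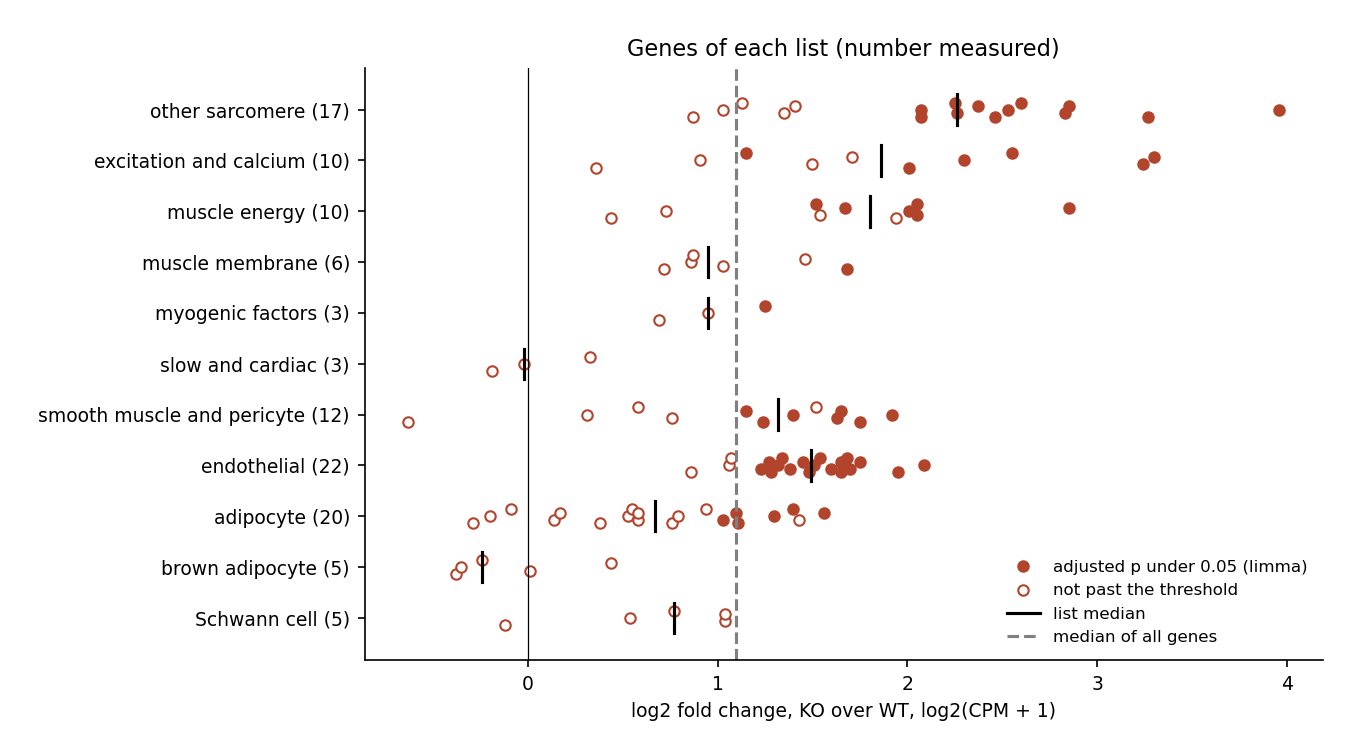
Log2 fold change, KO over WT on log2(CPM + 1), of each measured gene of 11 lists; filled points passed a limma adjusted p under 0.05, black bars are list medians and the dashed line at 1.10 is the median of all genes. Further sarcomere, calcium and energy genes have medians of 2.26, 1.86 and 1.80, and the slow and cardiac list lies at -0.02. In the first 3 of these lists, 8 of 17, 6 of 10 and 4 of 10 genes had a WT mean under 1.77 CPM. Their direction was therefore fixed, and the medians include them. The slow and cardiac list had 0 such genes, and all genes had 823 of 11802.

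Markers of other cells in the fat pad were read beside these. Smooth muscle and pericyte markers had 7 of 12 measured genes called higher (32.0% of all genes), with a median of 1.32 (0.34 relative) and 3 calls when KO replicate 3, 4 or 5 was left out. They summed to 838, 590, 761, 758 and 1073 CPM in KO, against 310, 439, 302 and 472 CPM in WT. KO replicate 5 was 1.46 times the mean of the other KO libraries, where the members' sum was 13.3 times. KO replicate 5 was the highest library for 5 of the 12, with 215 CPM for Mylk and 210 CPM for Smtn, genes of smooth muscle contraction, but not for Acta2, the smooth muscle actin, at 82.8 CPM beside 91.2 CPM in KO replicate 3. Endothelial markers had 19 of 22 genes called higher, with a median of 1.49 (0.52 relative). There were 14 calls without KO replicate 5, 8 without WT replicate 1 and 12 without WT replicate 3. Adipocyte markers had 6 of 20 called higher, near the 32.0% of all genes, with a median of 0.67 (-0.31 relative). There were 0 calls by limma without WT replicate 1, 1 without KO replicate 1, KO replicate 3 or WT replicate 3, and 3 without KO replicate 4. Relative to the library median limma called 0 genes higher in the smooth muscle, endothelial and adipocyte lists, and edgeR and DESeq2 called 0 higher. At an unadjusted limma p under 0.05, 1, 5 and 0 genes of these lists were higher, beside 707 of all 11802 genes. In KO replicate 5 the endothelial sum was 1.42 and the adipocyte sum 1.61 times the mean of the other KO libraries. Brown adipocyte markers had 5 of 14 genes measured and 0 called by limma, and summed to 231, 58.3, 37.5, 42.2 and 20.6 CPM in KO, against 52.7, 93.8, 67.8 and 28.5 CPM in WT. Their lowest sum was in KO replicate 5. Schwann cell markers had 5 of 10 measured and 0 called by limma, and summed to 47.7 to 83.7 CPM in KO and 31.2 to 47.5 CPM in WT. The sum of the further sarcomere genes was also highest in KO replicate 5, at 2291 CPM. It was 183 to 447 CPM in the other KO libraries and 61.2 to 157 CPM in the WT libraries. The part of other cell types in the members' values was not tested.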

How the data were processed

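RNA bound to HA-tagged ribosomes was sequenced from white adipose tissue of 5 KO and 4 WT samples. Per the labels' protocols, cDNA came from a low-input SMARTer kit and libraries from NexteraXT, which does not mark strand. Named in the submitters' processing notes, with no role stated, are R 4.0.2, edgeR 3.32.0, HISAT2 2.1.0, Trimmomatic 0.39, FastQC 0.11.9 and the builds GRCm38 and mm10. No source used here gives the read counter, its strand setting or the annotation. The authors deposited CPM, per the labels and the values, for 11802 genes. Values were whole multiples of 1 read in each library (100.00% within 0.1 read).

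The list of genes, the marker lists and the rule for named genes were chosen with earlier results of these data known. Named genes are all measured members, Mfn2, up to 4 called genes of each list with the smallest p (or the 2 highest where none was called), and the 10 genes most like the members with a mean of at least 5 CPM. Of these, 1 gene is not reported here. Symbols, coordinates and merged exon lengths came from GENCODE M21 (GRCm38), which matched 11787 genes. The test was limma 3.58.1 in R 4.3.3, fitted to log2(CPM + 1) of all genes with the trend option, Benjamini-Hochberg adjusted, with calls under 0.05. The pseudocount makes fold changes of low genes too small. Alternatives were pseudocounts of 0.5 and 5, a mean of at least 5 CPM, no trend, quantile normalization, a replicate block, each library left out, and edgeR 4.0.16 and DESeq2 1.42.0 on recovered reads. Leaving out KO replicate 5 and WT replicate 4 together was added after seeing the data. The relative limma fit and edgeR were tested on simulated data that held no shift of all genes between the groups. The limma fit on deposited CPM and DESeq2 were not.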

Additional observations from a re-analysis of the deposited data

Results flagged for a closer look

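KO replicate 5 stood apart from the other KO libraries in CPM for 8 of the 9 genes and for their sum. The gap from KO replicate 5 to the next KO library, as a fraction of the whole KO range, was 0.951 for Myh4, 0.947 for Myh1, 0.943 for Myh8, 0.947 for Acta1, 0.937 for Tnnt3, 0.919 for Tnni2, 0.901 for Ryr1 and 0.869 for Ttn. For the summed CPM it was 0.948. These gaps are listed because each takes up most of the range. Of 20 groups of values screened, 9 were flagged on CPM and 5 on log2(CPM + 1), so the separation depended on the scale. The genes were chosen on these values and all read the same library, so the gaps are a description and no test. The usual rate of about 1 in 20 for such gaps by chance does not apply to them.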

How the results depend on the processing

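Each of the 297 fold changes of the 9 genes computed under an alternative was above 0. The genes were chosen on this contrast in the same libraries, so their shared sign is a description and no test. The ratio of their summed CPM ran from 4.41 to 20.3 when single libraries were left out, lowest without KO replicate 5. It was 5.30 from medians.

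In the deposited CPM, 3780 genes were called higher and 24 lower. Quantile normalization gave 4 and 5, no trend gave 10 lower, and single omissions gave 1094 to 5916 higher and 7 to 23 lower. Without KO replicate 5 and WT replicate 4 there were 12 lower. Relative to the library median, 4 were higher and 9 lower. A pseudocount of 0.5 gave 2 and 2, a mean of at least 5 CPM gave 2 lower, no trend gave 0 and 0 (limma), single omissions 0 to 21 and 0 to 106, and omission of KO replicate 5 and WT replicate 4 gave 1 and 5. On recovered reads edgeR called 1 and 4, and DESeq2 29 and 112. Of the 45 other muscle genes, 26 were called, against 0 with quantile normalization (limma) and 12 to 28 with single omissions. Quantile normalization also gave 0 calls by limma in the endothelial, adipocyte and smooth muscle lists, against 19, 6 and 7.

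Replicate numbers shared by the groups did not pair the libraries (deviation correlations 0.03, -0.02, -0.04 and 0.04). With the replicate block, which uses libraries 1 to 4 of each group and so leaves out KO replicate 5, 1869 genes were higher and 10 lower, 26 were lower in relative values, and 11 of the 45 muscle genes were called.

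Signs turned only for genes that were not called in the values concerned. Tnni3 was 0.09 with a pseudocount of 5, 0.47 under the block, 0.51 without KO replicate 5 and WT replicate 4, and -0.38 to 0.47 with single omissions. Myh6 ran from -0.88 to 0.27, Prx from -0.33 to 0.10 (-0.48 without KO replicate 5 and WT replicate 4) and Ebf2 from -0.68 to 0.23 (0.23 under the block). Ppargc1a was -0.75 with quantile normalization and -0.30 to 1.08 with single omissions. In relative values it was 0.06 under the block and -1.40 to 0.09 with single omissions, Mfn2 -0.44 to 0.06 and Pnpla2 -0.13 to 0.33. Quantile normalization gave -0.47 for Mbp and -0.17 for Mfn2. The causes were not tested. Depth limits the WT values, where the 9 genes had 163 to 367 reads per library.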

Other observations

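KO replicate 5 was also high in genes that are not on any muscle list, which were picked out after their values were seen. Among the 82 genes with at least 5 times the mean of the other KO libraries were Tpm1, Tpm2 and Des, which encode tropomyosins and the muscle filament protein desmin. Tpm2 had 849 CPM in KO replicate 5, 166 ± 56.0 CPM in the other KO libraries (SD, n = 4) and 45.9 ± 21.9 CPM in WT (SD, n = 4). Top2a, a topoisomerase of dividing cells, was another and had 251 CPM in KO replicate 5, 48.2 ± 23.8 CPM in the other KO libraries and 29.7 ± 17.7 CPM in WT. Cdk1, the kinase that drives mitosis, had 90.0 CPM, 16.8 ± 10.5 CPM and 9.77 ± 10.8 CPM in the same groups.

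Esm1, a marker of endothelial tip cells, had 85.9 CPM in KO replicate 5, 7.92 ± 3.79 CPM in the other KO libraries (SD, n = 4) and 5.65 ± 6.55 CPM in WT (SD, n = 4). Apln, the ligand apelin made by such cells, had 122 CPM, 17.6 ± 13.8 CPM and 17.4 ± 16.2 CPM. These genes rest on a single library and were picked by eye from the 82, so they stand for no group of genes, and no test was made.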
